A study of Mus musculus with 2 samples.

Results

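Metallothionein and iron handling genes were read in cultured primary mouse brain pericytes (PCs) at an early and a late passage. The 10 genes were *Mt1*, *Mt2* and *Mt3* (metallothioneins), *Fth1* and *Ftl1* (ferritin), *Tfrc*, *Trf* and *Slc11a2* (iron uptake and carriage), and *Slc40a1* and *Cp* (iron export), found by their symbols among the 31053 genes of the count tables. They were selected on their symbols with the levels, shares of cells and spreads of these same libraries already known, so every difference between the passages is given here as a description. The study addressed how PCs shift in culture, with single-cell RNA sequencing of PCs at passage 5 (PC5) and at passage 20 (PC20). Each group was 1 library, so there is no replicate of a passage, no test between passages was possible, and the intervals in brackets, at 95%, cover counting error only. Cells of both libraries were isolated from brains of female wild-type C57BL/6N mice aged 6 to 8 weeks, with brains of 6 mice pooled, carried no transgene, and were grown first in an endothelial growth medium and then in a pericyte medium. The study's methods describe separate isolations for the passages, so passage and isolation cannot be told apart.

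A cell was kept when it had more than 1000 genes and under 20% of unique molecular identifiers (UMIs, 1 per captured transcript) from mitochondrial genes. This left 9950 PC5 cells with a median of 21700 UMIs and 4749 PC20 cells with a median of 33424 UMIs, and 20 cell barcodes occurred in both libraries. Because PC20 cells were deeper, shares of cells and spreads are given, unless stated, after drawing 10500 UMIs from each cell (thinned cells, 8847 in PC5 and 4474 in PC20). The share of a gene's UMIs held by its highest cells was taken from unthinned cells and is not matched for depth. Counts of cells within clusters, or with a set number of UMIs, are also from unthinned cells. The cells were labelled pericytes. The study's methods name PDGFRβ expression as the check of identity, and the staining it shows is of cells at another passage. Several pericyte markers were scarce: *Rgs5* had 405 UMIs in all of PC5 and 0 in PC20, and *Abcc9* had 1 UMI in each library. *Pdgfrb* stood at 44.6 and 5.43 UMIs per 1000000 UMIs (CPM), with a UMI in 35.8% and 5.50% of thinned cells. *Cspg4* had 5.55 and 0.0994 CPM, while *Anpep* was higher in PC20, at 1.93 and 3.00 CPM. The 8 pericyte markers looked at summed to 54.02 CPM in PC5 and 8.53 CPM in PC20, where 4 of them had no UMI. Fibroblast markers summed to 1877 CPM in PC5 and 107 CPM in PC20, smooth muscle markers to 283 and 49.6 CPM, endothelial markers to 181 and 0.262 CPM, neuron markers to 52.9 and 5.13 CPM, and microglia and macrophage markers to 4.09 and 0.801 CPM. Astrocyte markers summed to 157 CPM in PC5 and 233 CPM in PC20, and red blood cell markers to 0.112 and 0.0628 CPM. Some sums rest on few genes. *Slc4a4* alone had 143 and 229 CPM of the astrocyte sums. *Aldh1l1*, *Slc1a3*, *Aqp4* and *Gfap* were each lower in PC20, where *Gfap* had no UMI. *Tubb3* had 52.8 and 5.10 CPM of the neuron sums. In PC5, *Cdh5* had 168 CPM of the endothelial sum and *Kdr* 12.8 CPM, against 0.542 CPM for *Pecam1*. These levels differ between the libraries alongside every difference between passages below, and their part in those differences was not tested.

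Metallothioneins are small proteins, rich in cysteine, that bind zinc and copper. *Mt1* and *Mt2* are switched on by the zinc-sensing factor MTF1, which binds metal response elements in the promoters of these genes. *Mt3* is known best from neural cells. Iron enters most cells as transferrin (*Trf*) bound to the transferrin receptor (*Tfrc*), leaves endosomes through the transporter DMT1 (*Slc11a2*), is stored inside shells of ferritin heavy (*Fth1*) and light (*Ftl1*) chains, and leaves the cell through ferroportin (*Slc40a1*) with the help of copper-bearing ferroxidases such as ceruloplasmin (*Cp*). Several of these genes are also governed after transcription: iron regulatory proteins bind hairpins called iron responsive elements in the untranslated regions (UTRs) of their mRNAs. The counts do not show whether a hairpin was bound.

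The promoters of *Mt1* and *Mt2* are shown because these neighbouring genes stood at different ratios in the libraries. They come from RefSeq on GRCm38.p6 and run from 230 bases before to 30 bases after the annotated start on the plus strand, with the core of the metal response element, TGCACNC or TGCGCNC on either strand, in capitals.
Mt1 promoter (chr8:94178859-94179118): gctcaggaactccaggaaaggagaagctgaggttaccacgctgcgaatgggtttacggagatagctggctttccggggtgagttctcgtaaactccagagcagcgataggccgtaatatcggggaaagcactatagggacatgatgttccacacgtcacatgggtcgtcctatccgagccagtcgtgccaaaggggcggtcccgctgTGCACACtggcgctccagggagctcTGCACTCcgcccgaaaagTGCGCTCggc
Mt2 promoter (chr8:94172388-94172647): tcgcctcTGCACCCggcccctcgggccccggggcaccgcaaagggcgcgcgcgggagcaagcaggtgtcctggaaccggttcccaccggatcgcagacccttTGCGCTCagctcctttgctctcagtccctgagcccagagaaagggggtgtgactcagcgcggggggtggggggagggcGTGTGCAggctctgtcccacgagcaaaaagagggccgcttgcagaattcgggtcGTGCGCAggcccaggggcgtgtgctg
The *Mt1* window held 3 copies of the core, all on the plus strand, and the *Mt2* window held 4, of which 2 were on the minus strand. In *Mt1*, 2 copies began 3 and 21 bases after the annotated start, and in *Mt2* 1 copy began 5 bases after it. Copies outside the windows were not counted, so the counts depend on where the start is annotated. Of 32851 RefSeq promoter windows of 300 bases, 25.7% held at least 1 copy, 1.97% at least 3 and 0.517% at least 4. *Mt3* and *Mt4* had 1 copy each. *Fth1*, *Ftl1* and *Cp* had none, and 1 of 2 *Tfrc* windows had 2 overlapping copies. Of the 10 genes, 7 had a promoter in the table. A match is a description of letters and was not tested as a binding site.

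The iron responsive elements are shown because they divide the iron genes that held a match. Some had the hairpin at the 5′ end of the mRNA and *Tfrc* had it at the 3′ end. Each is a stretch of 30 bases from GENCODE M21 transcripts on GRCm38, written as DNA, found as a loop of CAGTGN after an unpaired C and 5 paired bases, with the loop in capitals.
Fth1, 5′ UTR (chr19:9982732-9982761, plus strand): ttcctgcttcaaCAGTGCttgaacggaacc
Ftl1, 5′ UTR (chr7:45459778-45459807, minus strand): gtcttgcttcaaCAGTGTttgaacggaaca
Slc40a1, 5′ UTR (chr1:45925464-45925493, minus strand): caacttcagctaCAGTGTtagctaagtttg
Tfrc, first of 4 in the 3′ UTR (chr16:32631219-32631248, plus strand): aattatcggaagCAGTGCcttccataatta
Tfrc, second (chr16:32631598-32631627, plus strand): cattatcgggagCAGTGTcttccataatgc
The ferritin chains and *Slc40a1* carried 1 such hairpin each in the 5′ UTR and *Tfrc* carried 4 in the 3′ UTR. The same letters were found in a UTR of 159 of 21901 coding genes, or 0.726%. No match of this pattern was found in *Mt1*, *Mt2*, *Mt3*, *Trf*, *Slc11a2* or *Cp*. The search asked for 5 unbroken pairs and this loop, so it misses hairpins of other shapes. A gene without a match, such as *Slc11a2*, may therefore still carry an iron responsive element.

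A gene counted as expressed when at least 10% of cells of either library held a UMI of it, and all 10 genes did before thinning. *Slc40a1* passed on 23.1% of unthinned PC20 cells and would not pass on thinned cells (8.56%), where 3 members rather than 4 were 2-fold higher in PC20. *Trf* and *Cp* were at least 2-fold higher in PC5, and *Mt2*, *Mt3*, *Ftl1* and *Slc40a1* were at least 2-fold higher in PC20, while *Mt1*, *Fth1*, *Tfrc* and *Slc11a2* lay within 2-fold. For comparison, 17.9% of 10504 expressed genes were at least 2-fold higher in PC5 and 19.1% in PC20, so 37.0% were apart in either direction. These genes therefore split in both directions, and 6 of 10 apart is a count of genes chosen with results known.

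**Figure D1:**
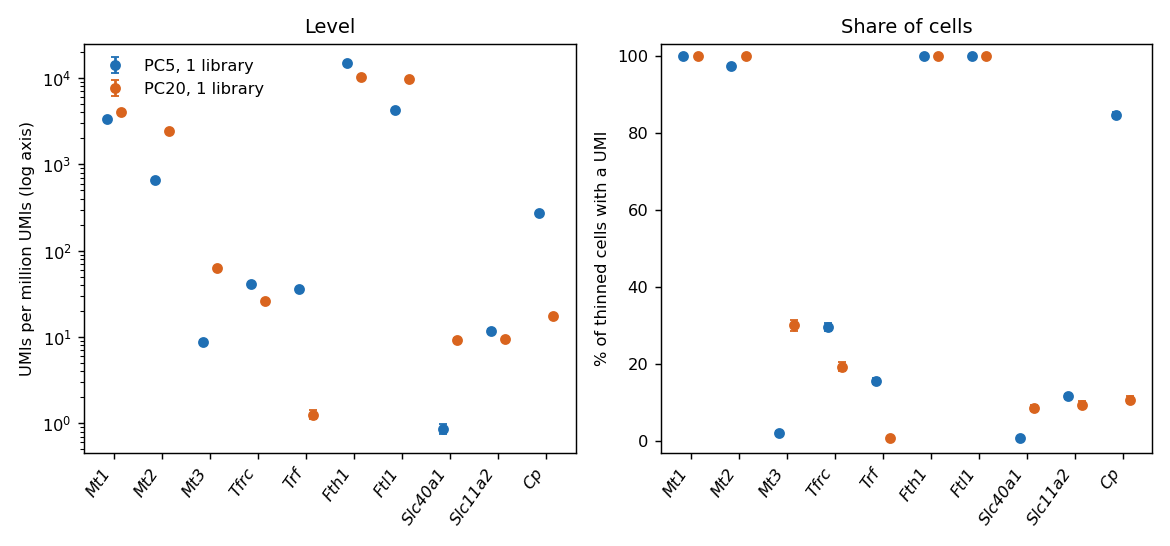
Level (left, UMIs per 1000000 UMIs, log axis) and share of thinned cells with a UMI (right, %) of the 10 genes in the 1 library of PC5 and the 1 library of PC20; bars are 95% counting intervals, mostly smaller than the points. *Fth1* and *Ftl1* lie near each other in PC20 and apart in PC5, and *Trf*, *Cp*, *Mt3* and *Slc40a1* lie farthest apart between the libraries.

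Metallothionein mRNA was abundant in both libraries, and the balance of its genes differed. *Mt1*, the main stress- and metal-responsive metallothionein (chr8:94179082-94180327, plus strand, GRCm38), stood at 3386 CPM at passage 5 (3379 to 3394) and 4048 CPM at passage 20 (4039 to 4057). The log2 ratio of PC5 over PC20 was −0.26 (−0.26 to −0.25), well inside 2-fold. Per thinned cell, the median was 29 UMIs of *Mt1* in PC5 and 30 in PC20, and the 95th percentile was 93 and 137 UMIs. The libraries thus held nearly the same middle value and differed in the upper tail.

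*Mt2*, its close partner (chr8:94172664-94173568, plus strand), lies 5513 bases before *Mt1*. Its level was 658 CPM at passage 5 (655 to 662) against 2435 CPM at passage 20 (2428 to 2442), which gives a log2 ratio of −1.89 (−1.90 to −1.88). Thinned cells had a median of 6 UMIs in PC5 and 24 in PC20, so here the middle value was also higher in PC20. *Mt1* and *Mt2* together made up 0.404% of all UMIs in PC5 and 0.648% in PC20. There were 5.14 *Mt1* UMIs for each *Mt2* UMI in PC5 and 1.66 in PC20. Within single thinned cells, the median share of *Mt1* in the sum of both was 84.2% in PC5 (5th to 95th percentile 67.9% to 95.7%) and 58.9% in PC20 (34.1% to 76.9%). *Mt1* UMIs outnumbered *Mt2* UMIs in 99.5% of cells at passage 5 and 71.9% at passage 20.

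*Mt3* (chr8:94152607-94154146, plus strand) was low, and its low level was spread over cells in a different way in each library. It stood at 8.78 CPM at passage 5 (8.40 to 9.18) against 62.3 CPM at passage 20 (61.2 to 63.4), which gives a log2 ratio of −2.83 (−2.90 to −2.76). A UMI of *Mt3* was found in 2.27% of thinned PC5 cells (1.97% to 2.60%) and 30.1% of thinned PC20 cells (28.7% to 31.4%). The part of free RNA in these shares was not tested. In PC5, 100 cells, or 1% of the library, held 84.5% of all *Mt3* UMIs, whereas in PC20 the 47 cells with most held 17.9%. *Mt4*, the fourth gene of this stretch of chromosome 8, was seen in 234 PC5 UMIs and 137 PC20 UMIs and did not count as expressed.

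The *Mt3* UMIs of PC5 sat in a small group of cells. Cells of each library were clustered without the 10 genes, and the clusters are called by number because none had 3 markers of a cell type among its leading genes. PC5 cluster 9 (119 cells, 1.20% of the library, led by the neural transcription factors *Six3*, *Sox2* and *Olig1*) had *Mt3* at 598 CPM and held 76.8% of the UMIs, while the other 11 PC5 clusters lay between 1.09 and 3.48 CPM. Even in cluster 9, only 37 of 119 cells had a *Mt3* UMI, and 32 of the 34 PC5 cells with 10 or more *Mt3* UMIs belonged to it. The astrocyte markers *Gfap*, *Aqp4* and *Aldh1l1* stood at 35.8, 11.1 and 35.4 CPM in cluster 9 and at 0.0317, 0 and 7.03 CPM in the other PC5 cells. The remaining astrocyte markers differed less: *Slc1a3* had 8.35 and 5.15 CPM and *Slc4a4* 167 and 143 CPM. Of the 5, *Gfap* alone was among the 10 leading genes of the cluster. Other genes were looked up after these values were seen. The collagen gene *Col1a2* had 1738 CPM in cluster 9, 1737 CPM in the rest of PC5 and 0.0471 CPM in PC20. The keratin gene *Krt18* had 4.77, 0.0816 and 913 CPM and *Wfdc2* 2.38, 0.122 and 370 CPM in the same order. *Six3* had 40.5, 0.00907 and 193 CPM and *Sox2* 37.4, 0.00907 and 66.8 CPM, while *Olig1* had 27.4 and 0.00907 CPM and no UMI in PC20. In cluster 9, *Col1a2* thus stood near the rest of PC5, and *Krt18*, *Wfdc2*, *Six3* and *Sox2* stood between it and PC20. *Olig1* and *Mt3* stood above both. These are levels over all cells of the cluster, and *Six3* and *Sox2* were each found in 37 of its 119 cells. Of the 34 PC5 cells with 10 or more *Mt3* UMIs, 29 had a *Six3* or *Sox2* UMI, 26 a *Col1a2* UMI and 0 a *Krt18* UMI. For comparison, *Col1a2* was found in 90.8% of all cluster 9 cells and 98.2% of the other PC5 cells. *Krt18* was found in 9.24% and 0.153% of them. The cluster level of *Col1a2* therefore need not hold for the cells with most *Mt3*. The origin of the cells of cluster 9 was not tested. None of the 20 barcodes found in both libraries fell in cluster 9. Without cluster 9, *Mt3* had a log2 ratio of −4.92, and as a mean over cells of each cell's CPM the ratio was −1.96.

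Ferritin was the most abundant mRNA of the set, and its total hardly differed while its 2 chains did. *Fth1*, the heavy chain with ferroxidase activity (chr19:9980598-9985098, plus strand), had more UMIs than any other gene in PC5, at 15126 CPM (15110 to 15142), and ranked second in PC20 at 10176 CPM (10162 to 10190). *Ftl1*, the light chain that favours mineral formation (chr7:45457944-45459884, minus strand), stood at 4277 CPM (4268 to 4285) in PC5, rank 51, and 9775 CPM (9761 to 9789) in PC20, rank 3. The log2 ratios were 0.57 (0.57 to 0.57) for *Fth1* and −1.19 (−1.20 to −1.19) for *Ftl1*. Heavy and light chain together took 1.94% of PC5 UMIs and 2.00% of PC20 UMIs (log2 ratio −0.04). A near copy, *Ftl1-ps1* on chromosome 13, had 17.7 and 60.1 CPM, with reads that counting may divide between it and *Ftl1*, and the 6 ferritin-like genes *Fthl17a* to *Fthl17f* had no UMI in either library.

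The balance of chains was also shifted within single cells, with overlap between the libraries. PC5 had 3.54 *Fth1* UMIs per *Ftl1* UMI and PC20 had 1.04. In thinned cells, *Fth1* made up a median of 76.1% of ferritin UMIs in PC5 (5th to 95th percentile 46.0% to 91.7%) and 48.3% in PC20 (33.6% to 67.1%). Heavy chain UMIs outnumbered light chain UMIs in 92.4% of cells at passage 5 and 42.6% at passage 20. The sum of both chains had a median of 182 UMIs per thinned cell in PC5 and 191 in PC20, with quartiles of 126 to 261 and 146 to 252, so the distributions of the total overlapped almost wholly while those of the balance were shifted.

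**Figure D2:**
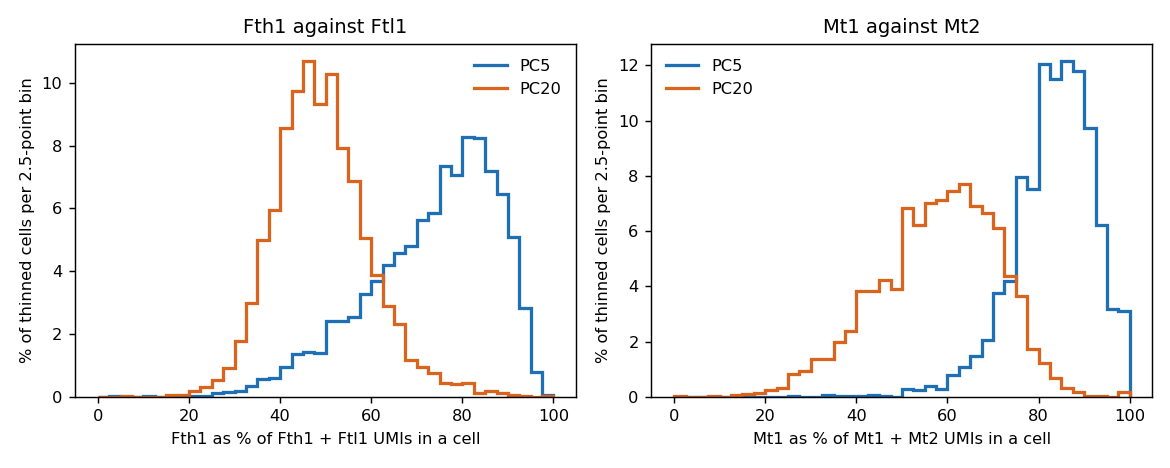
Share of *Fth1* in the *Fth1* and *Ftl1* UMIs of a cell (left) and of *Mt1* in the *Mt1* and *Mt2* UMIs of a cell (right), as % of thinned cells per bin of 2.5 points, for PC5 (8847 cells) and PC20 (4474 cells). PC5 cells peak at higher shares in both panels, with medians of 76.1% against 48.3% and of 84.2% against 58.9%.

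Among genes of iron uptake, the receptor and the endosomal transporter lay within 2-fold and the carrier did not. *Tfrc* (chr16:32608920-32632794, plus strand) had 41.3 CPM at passage 5 (40.5 to 42.1) against 26.0 CPM at passage 20 (25.3 to 26.7), which gives a log2 ratio of 0.67 (0.62 to 0.72). A *Tfrc* UMI was found in 29.7% of thinned PC5 cells (28.7% to 30.7%) and 19.3% of thinned PC20 cells (18.2% to 20.5%). *Slc11a2* (chr15:100387898-100425072, minus strand) had 11.9 CPM (11.4 to 12.4) and 9.39 CPM (8.96 to 9.83), and 11.7% and 9.57% of thinned cells. Its log2 ratio of 0.34 (0.25 to 0.43) was the smallest in size after that of *Mt1*.

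*Trf*, the carrier that binds ferric iron (chr9:103204001-103230444, minus strand), stood at 36.0 CPM at passage 5 (35.2 to 36.8) and 1.26 CPM at passage 20 (1.11 to 1.43). This log2 ratio of 4.83 (4.65 to 5.02), or 28.5-fold, was the largest of the 10 genes. Thinned cells with a *Trf* UMI made up 15.7% in PC5 (15.0% to 16.5%) and 0.872% in PC20 (0.621% to 1.19%), where the whole library held 241 *Trf* UMIs. *Trf* is also known as a product of oligodendrocytes and choroid plexus. Of the oligodendrocyte markers, *Mobp* had 0 UMIs in both libraries, *Mag* had 1 and 0 UMIs and *Mog* 0 and 7, while *Mbp*, which other cells also express, stood at 3.71 and 4.41 CPM. The 5 choroid plexus markers summed to 0.529 and 1.30 CPM with at most 0.283% and 0.872% of thinned cells each.

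*Trf* was spread very unevenly in PC5, though less so than *Mt3*, whose mean was too low for the measure used here. Spread beyond counting noise was measured as the square root of variance minus mean, over the mean, in thinned cells. For *Trf* in PC5 it was 7.88, rank 1 of 7650 genes with at least 0.1 UMI per cell, against a median of 0.430 over those genes. The 100 cells with most *Trf* held 37.9% of its UMIs, and 1 cell held 272. PC5 cluster 5 (335 cells, 3.37% of the library, led by *Tacr1*, *S100a8* and *Igfbp5*) had *Trf* at 504 CPM and 34.3% of the UMIs, whereas the other clusters lay between 3.92 and 62.2 CPM. Without cluster 5, the *Trf* log2 ratio was 4.26 and its excess spread was 4.04.

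The export genes lay in opposite directions. *Slc40a1*, encoding ferroportin (chr1:45908068-45926523, minus strand), had 0.861 CPM at passage 5 (0.743 to 0.992) against 9.25 CPM at passage 20 (8.82 to 9.69), which gives a log2 ratio of −3.43 (−3.65 to −3.21). It rested on 192 UMIs in PC5 and 1767 in PC20, and 0.803% and 8.56% of thinned cells had a UMI. *Cp* (chr3:19957054-20009145, plus strand), the ferroxidase that oxidises iron for loading onto transferrin, stood at 271 CPM at passage 5 (269 to 273) against 17.5 CPM at passage 20 (16.96 to 18.15), which gives a log2 ratio of 3.95 (3.90 to 4.00). A *Cp* UMI was found in 84.6% of thinned PC5 cells (83.8% to 85.4%) and 10.9% of thinned PC20 cells (10.0% to 11.8%). In PC5 *Cp* was thus a gene of most cells, with an excess spread of 0.799, while in PC20 it was found in fewer cells, with an excess spread of 3.15, rank 15 of 7514 genes. PC20 cluster 11 (267 cells, 5.62% of the library, led by *Prtn3*, *Bgn* and *Cdo1*) had *Cp* at 135 CPM and held 49.6% of its UMIs, and the other PC20 clusters of at least 50 cells lay at 32.3 CPM or lower.

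**Figure D3:**
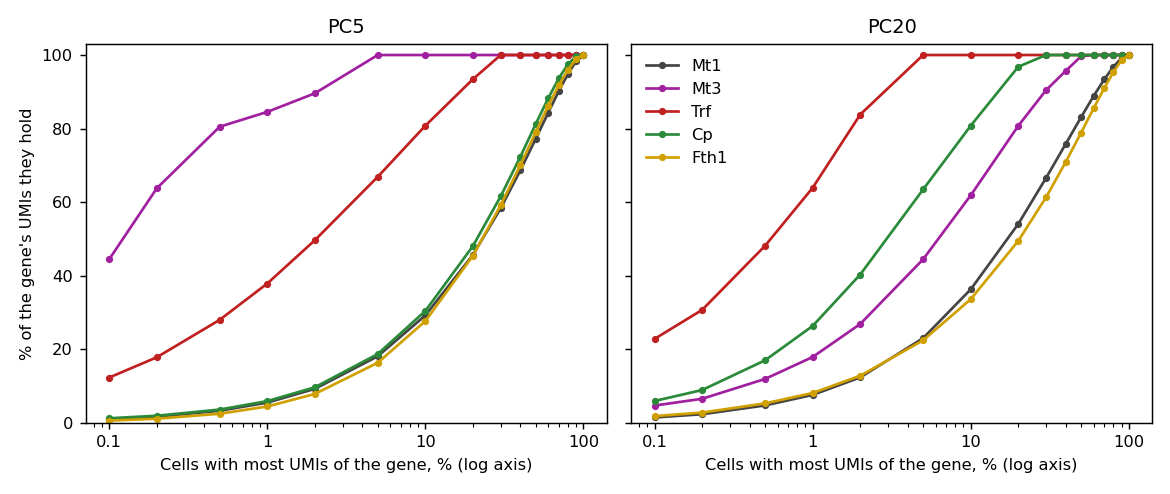
Share of a gene's UMIs (%) held by the cells with most of them (% of all kept cells, log axis) for *Mt1*, *Mt3*, *Trf*, *Cp* and *Fth1* in PC5 (left) and PC20 (right). In PC5 the top 1% of cells held 84.5% of *Mt3* and 37.9% of *Trf* UMIs but 5.48% of *Mt1* UMIs, and *Cp* followed *Mt1* and *Fth1*; in PC20 the top 1% held 26.3% of *Cp* UMIs and 7.59% of *Mt1* UMIs.

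Where it could be measured, the excess spread of the remaining genes was below that of *Trf* in PC5 and of *Cp* in PC20. Several were still more uneven than most genes. *Mt1*, *Mt2* and *Tfrc* lay above 89.7%, 92.9% and 91.8% of the measured genes in PC5. In PC20 they lay above 92.6%, 78.3% and 97.7%. The excess spread was 0.808 in PC5 and 0.939 in PC20 for *Mt1*, 0.961 and 0.628 for *Mt2*, 0.680 and 0.539 for *Fth1*, and 0.357 and 0.437 for *Ftl1*. *Ftl1* was therefore the abundant member closest to the median gene of either library, 0.430 and 0.431. *Tfrc* had 0.900 and 1.43, and *Slc11a2* had 0.403 and 0, which is the spread of counting alone. *Mt3* had 2.08 in PC20, rank 48, and was below the level needed for this measure in PC5, as were *Slc40a1* in both libraries and *Trf* in PC20.

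Across the clusters *Mt1* kept a narrower range in PC5 than in PC20, whereas *Fth1* ranged more widely in PC5. *Mt1* ran from 2739 to 4753 CPM over 12 PC5 clusters and from 1113 to 9560 CPM over the 14 PC20 clusters of at least 50 cells. Its highest PC20 levels were in cluster 6 (264 cells, led by the heat shock genes *Hspa1a* and *Hspa1b* and the histone gene *Hist1h2bb*) and in cluster 3 (479 cells, led by *Abi3bp*, *Elf3* and *Rhov*), at 9560 and 9248 CPM, and the next cluster stood at 5332 CPM. *Mt2* was highest in the same clusters, at 4139 and 4161 CPM. *Mt3* was highest in cluster 3 (149 CPM) and in cluster 11 (137 CPM) but had 45.1 CPM in cluster 6, so the metallothioneins did not share 1 order of clusters. Among the PC20 clusters of at least 50 cells, *Mt1*, *Mt2*, *Fth1* and *Ftl1* were lowest in cluster 12, whose cells had a median of 10017 UMIs.

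*Fth1* spanned 5.65-fold over the PC5 clusters and 3.09-fold over the PC20 clusters of at least 50 cells, and *Ftl1* spanned 2.74-fold in PC5. The lowest PC5 levels of *Fth1* were in clusters 11 and 10, at 4621 and 6485 CPM. Their cells had medians of 7146 and 5715 UMIs, so the PC5 range rests partly on shallow cells. Cluster 4 was the next lowest. *Fth1* reached 26117 CPM in cluster 5 and 8059 CPM in cluster 4 (led by *Gm43154*, *Sema7a* and *Stra6*), where *Ftl1* stood at 4423 and 4461 CPM. In PC5, *Ftl1* lay between 3857 and 5353 CPM in every cluster other than cluster 11, which had 1956 CPM and a median of 7146 UMIs per cell. *Tfrc* ran the other way from *Fth1* in those clusters, with 23.3 CPM in cluster 5 and 68.2 CPM in cluster 4. Among the PC20 clusters of at least 50 cells, *Slc40a1* was highest in cluster 2, at 19.0 CPM, where *Ftl1* was also highest, at 14075 CPM. Cluster 2 had 415 cells and was led by *Ppargc1a*, *Slpi* and *Rasgef1a*.

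**Figure D4:**
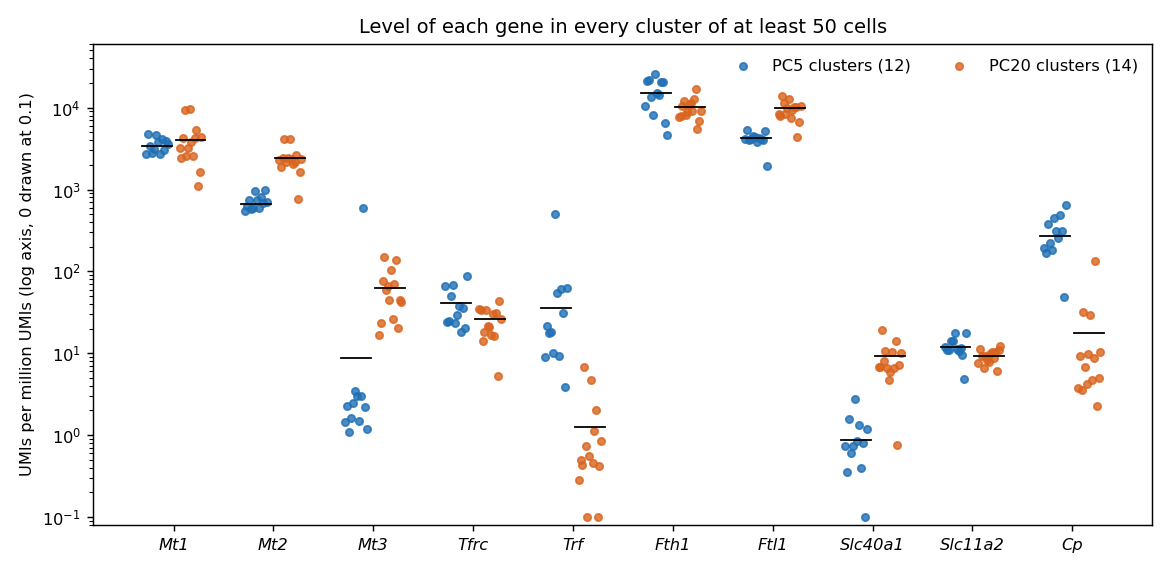
Level of the 10 genes (UMIs per 1000000 UMIs, log axis, 0 drawn at 0.1) in each cluster of at least 50 cells, 12 in PC5 and 14 in PC20; each point is 1 cluster, and black lines mark the whole library. *Mt3* in PC5 has 1 point at 598, far above the rest, as does *Trf* in PC5 at 504 and *Cp* in PC20 at 135, while *Ftl1* points of PC5 lie close together.

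Cells in division were compared with other cells of the same library, since 35.7% of thinned PC5 cells and 57.5% of thinned PC20 cells had a UMI of the proliferation genes *Mki67* or *Top2a*. *Tfrc* was higher in cells with such a UMI: 50.3 against 33.2 CPM in PC5, a log2 ratio of 0.60 (0.51 to 0.70), and 27.1 against 23.5 CPM in PC20, 0.21 (0.04 to 0.38). *Fth1* was lower in them, 13172 against 16809 CPM in PC5 and 9242 against 10613 CPM in PC20. *Trf*, *Mt3* and *Cp* were also lower in them, with log2 ratios of −1.65, −1.61 and −0.51 in PC5 and −0.77, −0.94 and −1.20 in PC20, though the PC20 interval for *Trf* (−1.63 to 0.07) spanned 0. In PC5 the *Mt3* and *Trf* ratios depend on few cells. The 34 PC5 cells with 10 or more *Mt3* UMIs held 77.0% of them. Cluster 5 held 34.3% of *Trf* UMIs, and 8.96% of its cells had an *Mki67* or *Top2a* UMI before thinning. *Mt1* and *Mt2* were slightly lower in cells with such a UMI, between −0.24 and −0.15 in both libraries. Before thinning, 5475 PC5 cells and 1321 PC20 cells had no UMI of either gene. Among these unthinned cells, all 10 genes kept the sign of their ratio between passages, and that of *Tfrc* was 0.38.

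Correlations across cells, on the scale of log(1 + UMIs per 10000) in thinned cells of 1 library, describe which genes varied together. Cells of a library share its processing, and no test is given. *Mt1* and *Mt2* had the highest r with each other in both libraries, 0.68 over 8847 PC5 cells and 0.75 over 4474 PC20 cells. After *Mt2*, the genes most like *Mt1* in PC20 were *Nfkbia*, an inhibitor of NF-κB (r = 0.47), the transcription factor *Sox9* (0.46), and the circadian regulators *Nr1d1* (0.43) and *Bhlhe40* (0.41). In PC5 they were *Cox6c*, *S100a6*, *S100a11* and *Dbi*, between 0.32 and 0.34. For *Mt2* in PC20 the list again held *Nfkbia*, *Bhlhe40* and *Nr1d1*, with the stress-induced factor *Ddit3* (0.35). For *Mt1*, no gene after *Mt2* was on the lists of both libraries. The median size of r between *Mt1* and 7277 genes of PC20 was 0.0496.

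*Fth1* and *Ftl1* varied together in PC20 (r = 0.53), where each was the other's most similar gene, and hardly in PC5 (r = 0.06). Ribosomal protein genes were on the PC20 lists too. After *Ftl1*, the genes most like *Fth1* there were *Tpt1* (0.41) and *Rps24* (0.40). After *Fth1*, those most like *Ftl1* were *Rps15a* (0.39), *Chchd10* (0.38) and *Rps3* (0.38). In PC5 the genes most like *Fth1* were the ribosomal protein genes *Rps20*, *Fau* and *Rpl11* (0.48 to 0.54), *Ifitm3* (0.47) and the selenium carrier gene *Selenop* (0.47), and among those most like *Ftl1* were *Rps2* (0.31), *Ppp1r14b*, *Rps19* and *Rpsa*. *Tfrc* was weakly opposed to *Fth1*, with r of −0.23 in PC5 and −0.15 in PC20, and its most similar genes in PC5 were *Ptma* (0.27) and *Hmgb1* (0.26). *Fth1* and *Cp* had r of 0.33 and 0.30. For *Cp* and *Trf*, whose similar genes were looked up after their values were seen, high r in PC5 were those of *Cp* with *Selenop* (0.40) and of *Trf* with *Serpine2* (0.36), *Apod* (0.35) and *Tgfbi* (0.35).

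Other genes of zinc, copper and iron handling were read from 4 lists with 97 genes, of which 96 matched a symbol and 75 were expressed. Of these 75, 14 were at least 2-fold higher in PC5 and 14 in PC20, against 17.9% and 19.1% of all expressed genes, and their median log2 ratio was 0.11, against −0.03 for all expressed genes. The lists as a whole thus stood near the background in both directions.

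Of 29 expressed haem and iron-sulfur cluster genes, 11 stood at least 2-fold higher at passage 20 and 3 at passage 5, against 19.1% and 17.9% of all expressed genes. The median of the log2 ratios of these 29 genes was −0.49. *Hmox1*, the inducible haem oxygenase that frees iron from haem, reached 57.0 CPM at passage 5 and 592 CPM at passage 20 (log2 ratio −3.38), and 39.4% and 91.4% of thinned cells. The haem transporter *Slc48a1* (35.4 and 361 CPM, −3.35), the biliverdin reductase *Blvrb* (34.4 and 170 CPM, −2.30) and the mitochondrial iron importers *Slc25a37* (−1.99) and *Slc25a28* (−1.31) lay in the same direction, as did the haem synthesis genes *Cpox* (−2.71), *Alad* (−1.72), *Urod* (−1.19) and *Ppox* (−1.04), with *Hscb* (−1.89) and *Abcb6* (−1.39). *Abcb6* and *Ppox* counted as expressed only through their PC20 cells. Higher in PC5 were *Abcb10* (1.86), the synthesis gene *Uros* (1.33) and the exporter *Abcg2* (1.18). Haem synthesis was therefore divided, since *Alas1*, its first enzyme, had 0.19 and *Fech*, its last, 0.97.

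Of 10 expressed genes of iron uptake, reduction and export, 5 were at least 2-fold higher in PC5 and 2 in PC20. The shares over all expressed genes were 17.9% and 19.1%. The ferritin receptor *Scara5* had 20785 UMIs in PC5 and none in PC20, at least 12.54 on the log2 scale against 3 counts over the PC20 library. *Bmp6*, a regulator of hepcidin (3.79), the ferrireductase *Steap3* (1.67), the receptor *Lrp1* (1.62) and *Slc22a17* (1.54) were also higher in PC5. *Steap1*, of the same reductase family as *Steap3*, lay the other way at 13.7 and 131 CPM (−3.26), as did *Hfe*, a partner of the transferrin receptor, with 147 and 1647 UMIs (−3.71). *Scara5*, *Bmp6* and *Slc22a17* counted as expressed only through their PC5 cells, and *Hfe* only through its PC20 cells. Of 10 expressed genes of iron storage, sensing and chaperones, *Bola2* alone was 2-fold apart (2.00, higher in PC5), against 37.0% of all expressed genes. The iron regulatory proteins *Aco1* (0.16) and *Ireb2* (0.88), the ferritin autophagy receptor *Ncoa4* (−0.61) and the iron chaperones *Pcbp1* (0.34) and *Pcbp2* (0.37) lay within 2-fold.

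Of 26 expressed zinc and copper genes, 5 were at least 2-fold higher in PC5 and 1 in PC20, against 17.9% and 19.1% of all expressed genes. The PC5 count was thus near the share over all genes. The zinc importers *Slc39a1* (155 and 32.4 CPM, 2.25) and *Slc39a10* (1.96), the copper chaperone *Atox1* (565 and 130 CPM, 2.12), the copper pump *Atp7a* (1.43) and the copper transporter gene *Slc31a2* (1.40) were higher in PC5, and *Commd1* (−1.19) was higher in PC20. *Mtf1*, which encodes the factor that acts on the metal response elements shown above, had 13.0 and 11.9 CPM (0.12). *Slc30a1*, a zinc exporter gene that MTF1 is known to switch on, had a promoter window with 2 copies of the core. It stood at 5.15 and 7.09 CPM (−0.46), within 2-fold as was *Mt1*, while *Mt2* (−1.89) was past 2-fold in the same direction.

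**Figure D5:**
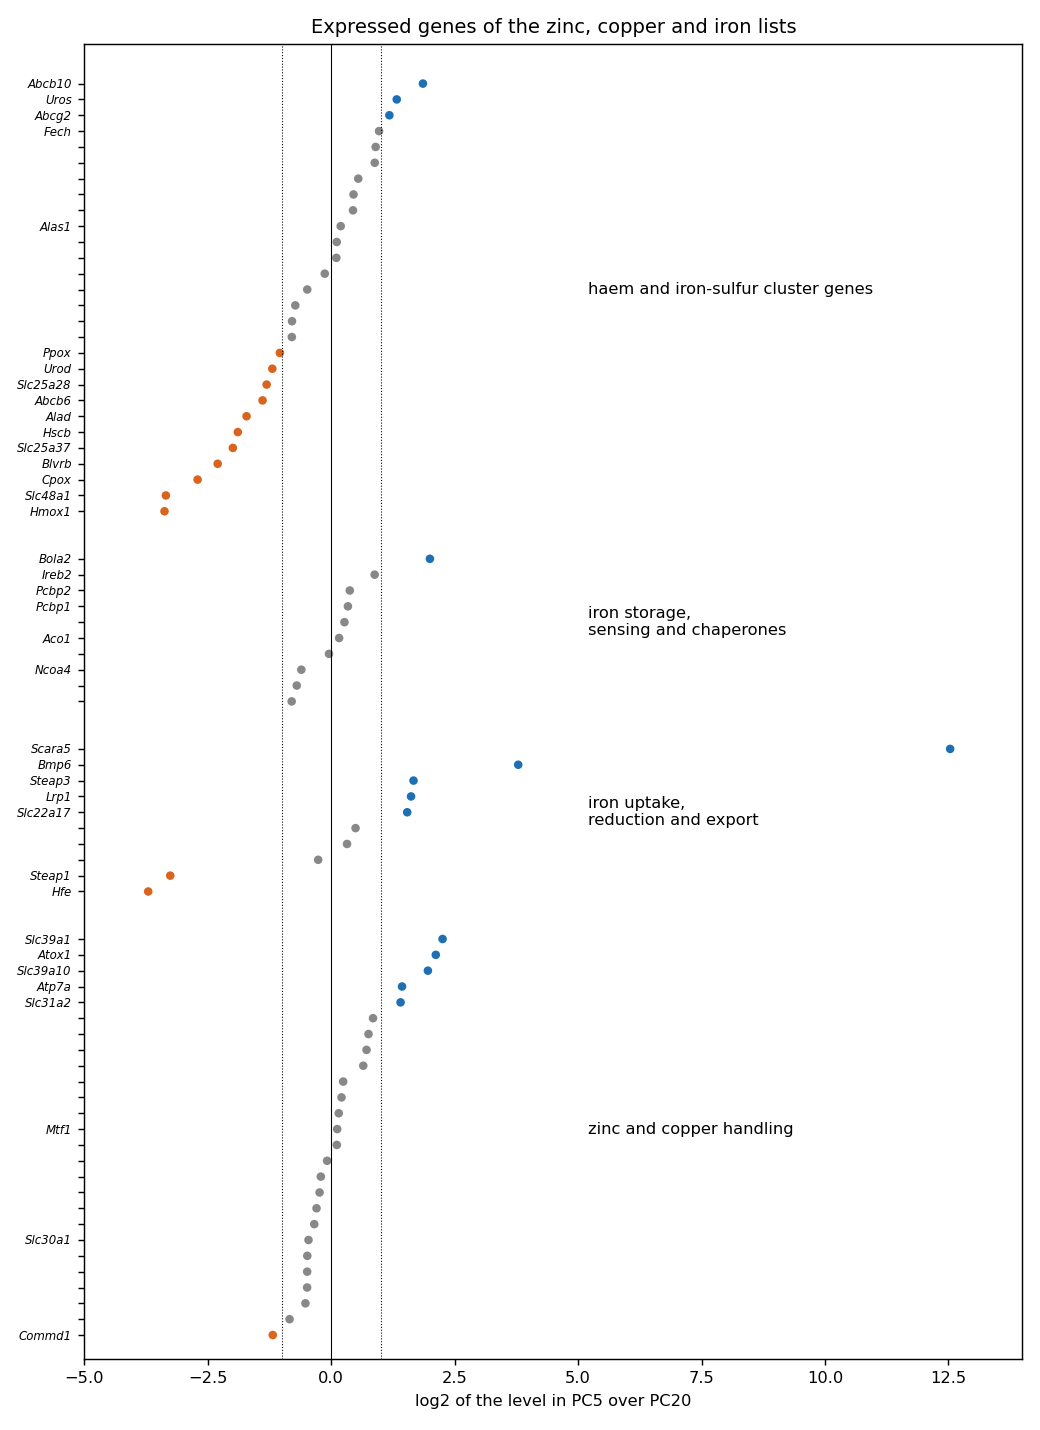
Log2 of the level in PC5 over PC20 for 74 of the 75 expressed genes of 4 zinc, copper and iron lists, with names for those described in the text; blue points are at least 2-fold higher in PC5, orange points at least 2-fold higher in PC20, grey points lie between, and dotted lines mark 2-fold. The point of *Scara5* is a lower bound because PC20 had no UMI of it, and most orange points belong to the haem and iron-sulfur list (11 of 14).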

How the data were processed

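UMI counts per gene and cell barcode, as the authors deposited them, were made by CellRanger 5.0.1 on mm10 from 10x 3′ v3.1 libraries and were not normalized. No spare per-sample column occurred. Kept cells, filtered as in the study's methods, had more than 1000 genes and under 20% mt- UMIs, which left out 679 of 10629 PC5 and 135 of 4884 PC20 barcodes. Kept depth was 223054273 UMIs in PC5 and 191122251 in PC20. UMIs were summed per library, divided by the total (CPM), and compared as log2 of PC5 over PC20, with exact Poisson (level), conditional binomial (ratio) and Clopper-Pearson (share) intervals at 95%. Counts come from 3′ ends and do not grow with gene length. Each cell was thinned to 10500 UMIs with a fixed seed, and 1103 PC5 and 275 PC20 cells were too shallow. Cells were clustered per library on 2000 variable genes without the members, list, mt- and ribosomal protein genes (15 components, 20 neighbours, Leiden at resolution 0.8, scanpy 1.11.5, SciPy 1.17.1). No doublet caller was used and no doublets were removed. The ratio and spread code was tested on simulated data. The members and lists were chosen with earlier results of these data known. Named were the members, their near copies, list genes that were 2-fold apart or needed for a role, the 3 leading genes of a cluster, and the 5 genes with highest r to *Mt1*, *Mt2*, *Fth1*, *Ftl1* or *Tfrc*. Alternatives changed the cell filter, cells, total, weighting, centring and the definition of an expressed gene. Ensembl symbols and coordinates are those of GENCODE M21 on GRCm38. Some genes are not reported here.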

Additional observations from a re-analysis of the deposited data

Results flagged for a closer look

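For 2 genes, the ratio of cells with over cells without an *Mki67* or *Top2a* UMI had opposite signs in the 2 libraries. Both PC5 intervals spanned 0, so the direction in PC5 is undetermined for both genes. *Ftl1* had a log2 ratio of 0.005 (−0.004 to 0.015) in PC5, which spans 0, and −0.16 (−0.17 to −0.16) in PC20, a difference of 0.169. *Slc40a1* had 0.07 (−0.65 to 0.78) in PC5, on 28 UMIs in cells with and 48 in cells without such a UMI, and −0.44 (−0.72 to −0.17) in PC20, a difference of 0.519. With 1 library per passage, neither difference was tested.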

How the results depend on the processing

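No paired analysis was possible because each passage is 1 library, and no replicate could be left out. All 10 log2 ratios kept their sign under the 11 alternatives for cells, totals, weighting and centring, from −0.29 to −0.21 for *Mt1*, −1.93 to −1.83 for *Mt2*, −4.92 to −1.96 for *Mt3*, 0.38 to 0.70 for *Tfrc*, 4.26 to 5.39 for *Trf*, 0.55 to 0.66 for *Fth1*, −1.34 to −1.16 for *Ftl1*, −3.65 to −3.39 for *Slc40a1*, 0.31 to 0.38 for *Slc11a2* and 3.48 to 3.98 for *Cp*. With expressed defined as a UMI in 10% of cells of both libraries, 1 member was 2-fold higher in PC5 and 2 in PC20, because *Trf*, *Mt3* and *Slc40a1* were then left out. Under this rule, 11 genes of the zinc, copper and iron lists were 2-fold higher in PC5 and 11 in PC20. Of all 8612 genes that passed it, 1334 were 2-fold higher in PC5 and 1214 in PC20. With expressed defined as 1% of cells of either library, 3023 genes were 2-fold higher in PC5. Leaving out the 20 shared barcodes, cluster 9, cluster 5 or clusters of shallow cells was chosen after seeing the data, and none moved a count of genes past 2-fold by over 1.5 times. Depth limits *Slc40a1* in PC5 (192 UMIs) and *Trf* in PC20 (241 UMIs) most.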

Other observations

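Barcodes outside the cell filter were not used in the comparisons. The 679 left-out PC5 barcodes held 924207 UMIs, with *Mt1* at 5209 CPM (5063 to 5358) and *Mt2* at 1330 CPM (1256 to 1406), against 3386 and 658 CPM in kept cells. *Fth1* stood at 7431 CPM there (7257 to 7609), against 15126 CPM. In the 135 left-out PC20 barcodes, *Mt1* had 2803 CPM (2566 to 3055) against 4048 CPM and *Mt2* 1814 CPM (1624.8 to 2019.6) against 2435 CPM, so both genes lay above the kept cells in PC5 and below them in PC20. Single-cell maxima were also far from the medians: 1 PC20 cell held 9393 *Fth1* UMIs and 6532 *Ftl1* UMIs were the most in any PC20 cell, while the medians of kept PC20 cells were 297 and 315 UMIs.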
